A study of Homo sapiens with 6 samples.

Results

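The NRF2, glutathione and thioredoxin defence is described here by 40 genes chosen by symbol, all of which were found among the 17579 genes of the expression table. They are the stress sensor and its transcription factor, the enzymes that make and use glutathione and thioredoxin, the peroxiredoxins, the superoxide dismutases and catalase, suppliers of NADPH, haem oxygenases and ferritin. RNA-seq was made from LP-1, an established human multiple myeloma cell line labelled as a B lymphoblast and grown with serum. The AURKA-guide group (3 libraries) had received a virus carrying a CRISPR guide against AURKA, which encodes Aurora A, a kinase of mitosis, and the control group (3 libraries) a virus with a non-targeting guide. Both groups share the viral infection. The sources used here do not say whether the AURKA-guide cells were a pool or a clone, or whether replicates came from separate cultures. The p-values therefore cover the spread among these libraries alone, and that spread may be technical. In such bulk samples, fewer cells of a type and less RNA per cell cannot be told apart.

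NRF2, encoded by NFE2L2, is a transcription factor that KEAP1 hands to a ubiquitin ligase for destruction in unstressed cells. Oxidants and electrophiles modify cysteines of KEAP1, NRF2 then accumulates, pairs with small MAF proteins and binds antioxidant response elements in its target genes. The targets supply glutathione, the cell's main small thiol, and the thioredoxin system, which passes electrons from NADPH to peroxiredoxins and other proteins. Plasma cells and myeloma cells fold large amounts of disulfide-bonded immunoglobulin and are known for a high demand on thiol balance.

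The antioxidant response element has the core TGACNNNGC, and stretches around some matches close to a gene's start are shown here. Elements farther from a start, where NRF2 could also act, were not searched for. RefSeq promoter windows (build GRCh38.p14, 250 bases before to 50 after a gene's start; the deposited values were made on hg19) were found for 30 of the 40 genes, 43 windows in all. FTH1, GSR, GSS, HMOX1, MGST2, PRDX1, PRDX6, SLC7A11, SOD1 and TXN2 had no entry. On either strand, the core was found in 8 of the 43 windows (18.6%), against 13.3% of all 35116 windows in the table. The 8 windows belong to KEAP1, GCLM, GSTP1, GSTO1, TXNRD1, PGD and ME1. The full word TGACTCAGC, which also contains the AP-1 site TGACTCA, was found in 2 of the 43 windows (4.65%), those of GSTP1 and ME1, against 0.561% of all windows. In the following stretches, read 5′ to 3′ on the gene's strand and reaching no farther than its start, capitals mark 1 core, or its reverse complement, in each; the KEAP1 stretch holds another core, TGACACGGC, near its 5′ end in lower case:
GSTP1 (chr11:67583721-67583779, plus strand): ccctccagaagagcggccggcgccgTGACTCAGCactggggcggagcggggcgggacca
ME1 (chr6:83431155-83431213, minus strand): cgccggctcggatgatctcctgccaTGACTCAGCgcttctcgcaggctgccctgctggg
GCLM (chr1:93909431-93909489, minus strand): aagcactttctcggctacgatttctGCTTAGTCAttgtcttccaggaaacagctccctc
KEAP1 (chr19:10502772-10502827, minus strand): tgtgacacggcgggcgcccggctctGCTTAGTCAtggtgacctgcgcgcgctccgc
TXNRD1 (chr12:104215655-104215713, plus strand): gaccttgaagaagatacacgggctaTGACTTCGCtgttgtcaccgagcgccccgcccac
A match is a description of letters and not a shown site of binding, and no match says only that these letters are not in the window.

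Each library held between 17724174 and 18523594 expected counts. Values are given as CPM, counts after TMM scaling to a common library size, and levels of different genes are compared as the authors' TPM, which divides by transcript length. AURKA itself fell to 113, 119 and 113 CPM in AURKA-guide replicates 1 to 3, against 189, 192 and 195 CPM in control replicates 1 to 3, and the groups did not overlap. Its log2 fold change was -0.74 (SE 0.0488, 95% interval -0.84 to -0.64, adjusted p = 1.55e-06). A guide-directed break need not remove the RNA, and protein was not measured. All 11 plasma cell and myeloma markers passed the filter on low counts, and SLAMF7 was lowest at 0.698 CPM in AURKA-guide and 0.768 CPM in control libraries. Of the 11, CD38 rose to 274 CPM in AURKA-guide, against 210.3 CPM in control libraries (log2 fold change 0.38, edgeR adjusted p = 4.16e-04). FGFR3 fell to 633 CPM in AURKA-guide, against 747 CPM in control libraries (log2 fold change -0.24, edgeR adjusted p = 0.0424), and the other 9 did not pass. The list summed to 9656 to 9830 CPM in AURKA-guide and 9648 to 10380 CPM in control libraries. The T and NK cell markers in the table summed to at most 1.19 CPM in AURKA-guide and 1.26 CPM in control libraries, and the erythroid markers to at most 0.386 CPM in AURKA-guide and 0.464 CPM in control libraries. The myeloid markers reached at most 5.87 CPM in AURKA-guide and 6.12 CPM in control libraries, and the stromal markers at most 5.94 CPM in AURKA-guide and 5.80 CPM in control libraries. The epithelial markers, mostly MUC1, summed to 23.4 to 26.5 CPM in AURKA-guide and 27.6 to 31.25 CPM in control libraries, and the part of this in the results was not tested.

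No gene of the redox defence passed the test between AURKA-guide and control cells. Of the 37 members with enough reads to test, 0 had an adjusted p under 0.05 in the edgeR quasi-likelihood test, against 2.03% of all 13138 genes tested, and 0 did in DESeq2, against 2.14%. At an unadjusted p under 0.05, 2 members were higher and 3 lower, which is 13.5% of the 37 against 16.1% of all genes (7.54% higher and 8.58% lower). The values of the groups did not overlap for 12 members, 6 higher and 6 lower, which is 32.4% of the 37 against 20.8% of all genes (10.5% higher and 10.3% lower). The log2 fold change was above 0 for 15 of the 37 members (40.5%) and for 50% of all genes. Its median was -0.030 over the members and -9.41e-05 over all genes.

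The 95% intervals bound the size of the differences. For 29 of the 37 members the interval lay inside a 1.2-fold difference in either direction, and for 36 inside a 1.5-fold difference. The exception was SLC7A11, which had few reads. The largest difference was that of TXNIP, at 0.27 on the log2 scale. The median size without its sign was 0.068 over the members and 0.089 over all genes. Members and all genes were not matched for expression level, so these medians cannot say whether the members were steadier. For 13 members, among them NQO1, GCLM, GSTM4, PRDX1 and TXN2, an expected count was not whole in at least 1 library (tolerance 0.005), so reads had been divided between features and those values are less certain.

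**Figure D1:**
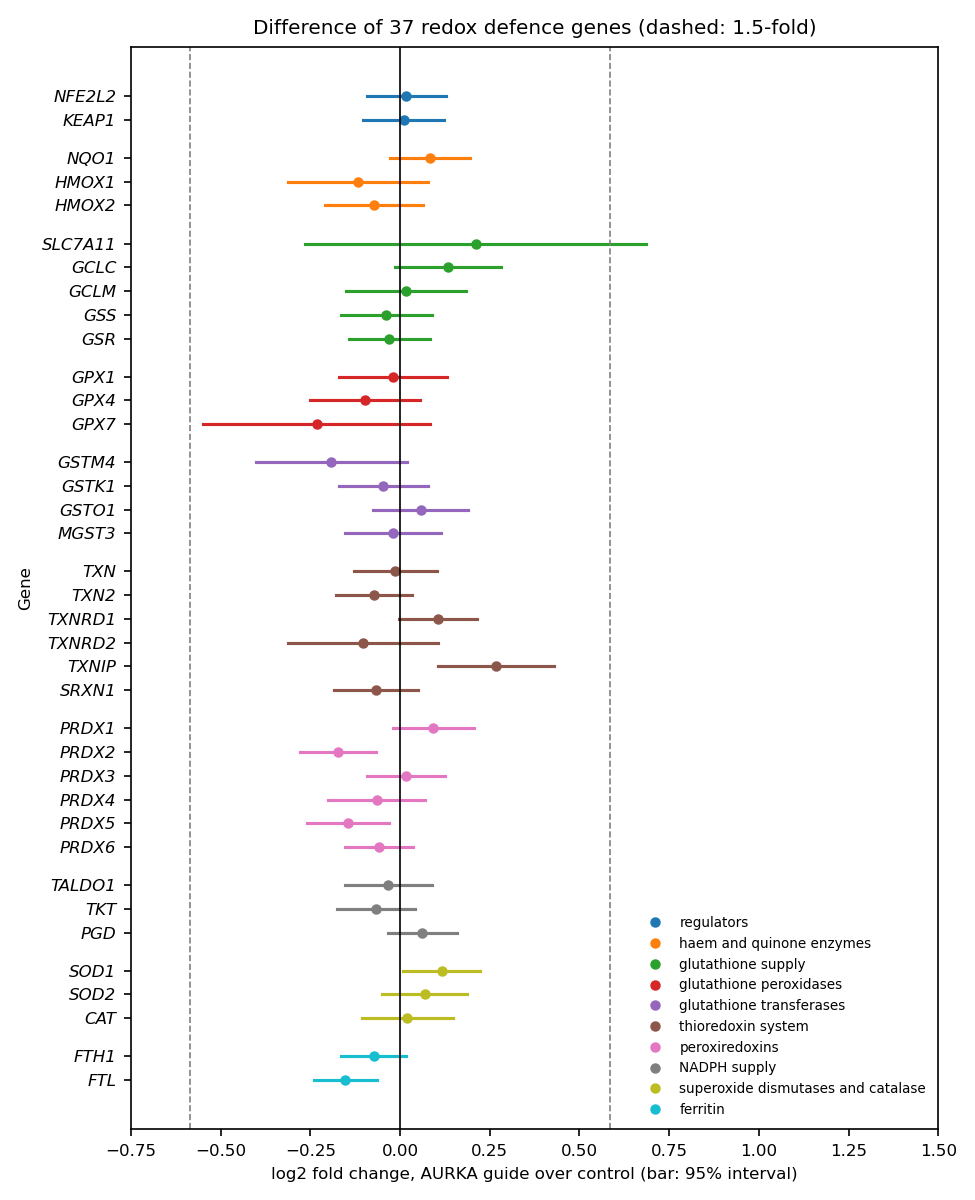
Log2 fold change of AURKA guide over control for each of the 37 members tested (point) with its 95% interval (bar), coloured by role; dashed lines mark a 1.5-fold difference. All points lie between -0.23 and 0.27, and the interval of SLC7A11 alone crosses a dashed line.

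Ferritin dominated the levels. FTL, the ferritin light chain, was highest with a mean of 6522 ± 9.86 TPM in AURKA-guide and 7102 ± 129.9 TPM in control libraries (SD, n = 3 each), followed by FTH1, the iron-oxidising heavy chain, with 1679 ± 24.7 TPM in AURKA-guide and 1730.4 ± 19.6 TPM in control libraries. Next came the peroxiredoxin PRDX2, with 731 ± 8.84 TPM in AURKA-guide and 807 ± 27.1 TPM in control libraries. The factor NFE2L2 stood at rank 20 of the 40 with 97.8 ± 0.509 TPM in AURKA-guide and 94.8 ± 6.80 TPM in control libraries, beside its target NQO1 at rank 19 with 100.05 ± 3.59 TPM in AURKA-guide and 92.6 ± 2.41 TPM in control libraries. These neighbours did not differ beyond their spread.

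Several members had almost no RNA. GSTP1, the pi-class glutathione transferase, had expected counts of 1, 0 and 0 in AURKA-guide replicates 1 to 3, against 0, 2 and 4 in control replicates 1 to 3. ME1, the cytosolic malic enzyme that makes NADPH, had 0, 1 and 0 in the AURKA-guide libraries and 0, 0 and 0 in the control libraries. MGST2, a microsomal glutathione transferase, had 0, 0.980 and 0 in the AURKA-guide libraries and 1, 0 and 0 in the control libraries. A count of 0 allows up to 3 counts, or 0.162 to 0.169 CPM per library, covering counting error only, so no comparison was possible for these 3 genes. GSTP1 and ME1 are the same genes whose windows held the full word TGACTCAGC. TXNRD1, GCLM, KEAP1, PGD and GSTO1, whose windows held variants of the core, were expressed. A link between the word and the RNA level was not tested. SLC7A11, the cystine carrier of glutathione synthesis, was the lowest of the tested members at 0.530 ± 0.0872 TPM in AURKA-guide and 0.447 ± 0.122 TPM in control libraries.

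**Figure D2:**
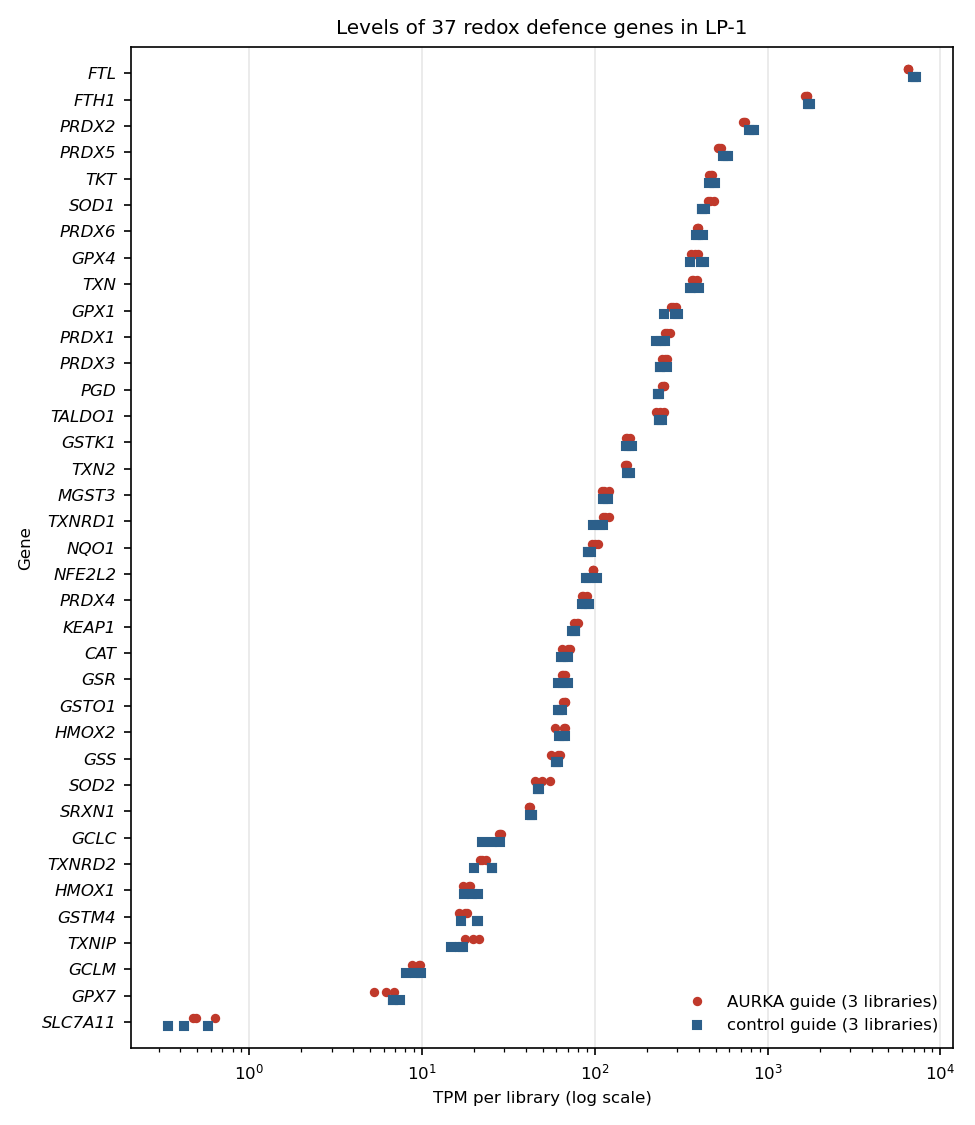
TPM of the 37 tested members in each library on a log scale, ordered by mean level; circles are the 3 AURKA-guide and squares the 3 control libraries. Levels run from about 0.5 TPM for SLC7A11 to 6522 and 7102 TPM (group means) for FTL, and the groups lie close together at each gene.

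No difference was detected in the factor or its sensor. NFE2L2 (gene ID 4780) was at 142, 143 and 141 CPM in AURKA-guide replicates 1 to 3, against 137, 136 and 149 CPM in control replicates 1 to 3. The AURKA-guide libraries lay inside the range of the control libraries, and the log2 fold change was 0.0172 (SE 0.0514, 95% interval -0.09 to 0.13, adjusted p = 0.897). KEAP1 (gene ID 9817) was at 105, 101 and 101 CPM in the AURKA-guide libraries and 102, 106 and 97.2 CPM in the control libraries, with a log2 fold change of 0.0108 (SE 0.0528, 95% interval -0.10 to 0.12, adjusted p = 0.939), and the groups overlapped. Over the alternative fits the value ran from -0.0119 to 0.0574 for NFE2L2 and from -0.0236 to 0.0878 for KEAP1, so neither has a settled sign.

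The classical targets NQO1 and HMOX1 gave small and opposite values. NQO1 (gene ID 1728), a quinone reductase often read as a gauge of NRF2 activity, was at 127, 138 and 129 CPM in AURKA-guide replicates 1 to 3, against 121, 126 and 125 CPM in control replicates 1 to 3. Every AURKA-guide library was above every control library, but by less than 2 CPM at the nearest, and the log2 fold change of 0.0829 (SE 0.0518, 95% interval -0.03 to 0.19, adjusted p = 0.453) did not pass. HMOX1 (gene ID 3162), the inducible haem oxygenase, was at 15.2, 14.0 and 14.6 CPM in the AURKA-guide libraries and 15.9, 17.6 and 14.1 CPM in the control libraries. These groups overlapped, with a log2 fold change of -0.12 (SE 0.0915, 95% interval -0.31 to 0.08, adjusted p = 0.551). HMOX2, the constitutive haem oxygenase, was at a log2 difference of -0.0716.

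None of the 5 genes of glutathione supply passed. SLC7A11 (gene ID 23657) was at 3.11, 2.47 and 2.31 CPM in the AURKA-guide libraries and 2.14, 3.02 and 1.67 CPM in the control libraries, overlapping groups in which the log2 fold change was 0.21 (SE 0.223, 95% interval -0.27 to 0.69, adjusted p = 0.679). GCLC (gene ID 2729), the catalytic subunit of the rate-limiting enzyme of glutathione synthesis, was at 48.6, 51.1 and 48.9 CPM in AURKA-guide replicates 1 to 3, against 45.2, 41.0 and 49.1 CPM in control replicates 1 to 3. Control replicate 2 was lowest and control replicate 3 lay among the AURKA-guide libraries, with a log2 fold change of 0.13 (SE 0.0691, 95% interval -0.01 to 0.28, adjusted p = 0.354); without control replicate 3 it was 0.20 with an adjusted p of 0.0358 (edgeR). GCLM, the modifier subunit, averaged 24.2 ± 1.34 CPM in AURKA-guide and 24.0 ± 1.91 CPM in control libraries (SD, n = 3 each), a log2 fold change of 0.0165 (SE 0.0781, 95% interval -0.15 to 0.18, adjusted p = 0.938). GSS, which completes glutathione, and GSR, which returns its oxidised form to use, were at -0.0388 and -0.0299 on the log2 scale.

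None of the tested genes listed as glutathione peroxidases or transferases passed. The selenoproteins GPX1 and GPX4, the second of which reduces lipid peroxides in membranes, were at -0.0202 and -0.10 on the log2 scale, and the reticulum peroxidase GPX7, which averaged 3.74 ± 0.471 CPM in AURKA-guide and 4.40 ± 0.344 CPM in control libraries (SD, n = 3 each), was at -0.23. GPX4 was at -0.19 with an adjusted p of 0.0181 (edgeR) without control replicate 3, and at 0.0213 with an offset for transcript GC content. GSTM4 (gene ID 2948), a mu-class transferase, was at 11.9, 13.0 and 13.0 CPM in the AURKA-guide libraries and 12.4, 15.8 and 15.2 CPM in the control libraries. Control replicate 1 lay among the AURKA-guide libraries, and the log2 fold change was -0.19 (SE 0.0985, 95% interval -0.40 to 0.02, adjusted p = 0.352). GSTK1, GSTO1 and MGST3 were at -0.0462, 0.0574 and -0.0207 on the log2 scale.

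In the thioredoxin system TXNIP stood out by size without passing the threshold. TXNIP (gene ID 10628), which binds reduced thioredoxin and limits glucose uptake, was at 26.9, 29.8 and 31.2 CPM in AURKA-guide replicates 1 to 3, against 24.7, 22.8 and 25.4 CPM in control replicates 1 to 3. Each AURKA-guide library lay above each control library, and the log2 fold change was 0.27 (SE 0.0757, 95% interval 0.11 to 0.43, adjusted p = 0.0973). It had an adjusted p of 0.0150 (edgeR) without control replicate 3 and of 0.0209 (edgeR) with the GC offset. The thioredoxins lay closer to 0. TXN (gene ID 7295), the cytosolic thioredoxin, was at 157, 171 and 156 CPM in the AURKA-guide libraries and 157, 159.7 and 172 CPM in the control libraries, with overlapping groups and a log2 fold change of -0.0130 (SE 0.0544, 95% interval -0.13 to 0.10, adjusted p = 0.929). TXN2 (gene ID 25828), the mitochondrial thioredoxin, was at 101, 105 and 102 CPM in the AURKA-guide libraries and 110.2, 109 and 105 CPM in the control libraries; the groups were apart by less than 1 CPM, and the log2 fold change was -0.0725 (SE 0.0499, 95% interval -0.18 to 0.03, adjusted p = 0.496).

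The thioredoxin reductases, selenoproteins that recharge thioredoxin with electrons from NADPH, gave values of opposite sign. TXNRD1 (gene ID 7296), the cytosolic enzyme and an NRF2 target, was at 227, 236 and 244 CPM in AURKA-guide replicates 1 to 3, against 221, 208 and 228 CPM in control replicates 1 to 3. AURKA-guide replicate 1 lay just below control replicate 3, and the log2 fold change was 0.11 (SE 0.0506, 95% interval -0.00295 to 0.213, adjusted p = 0.323). TXNRD2, the mitochondrial enzyme, was at -0.10 on the log2 scale, at -0.23 without control replicate 3 (edgeR adjusted p = 0.0316) and at -0.00381 with the GC offset. SRXN1, which repairs overoxidised peroxiredoxins, averaged 57.4 ± 1.36 CPM in AURKA-guide and 60.1 ± 0.846 CPM in control libraries (SD, n = 3 each) without overlap, at -0.0665 on the log2 scale.

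Transcript estimates of TXNIP differed more than its gene total. The transcript NM_006472.5 took 88.3%, 86.6% and 80.5% of the TXNIP TPM in AURKA-guide replicates 1 to 3, against 64.1%, 64.7% and 63.9% in control replicates 1 to 3. The mean difference was 20.9 percentage points. As the groups did not overlap, an exact two-sided permutation p could only be 0.1, the smallest that 3 against 3 libraries allow. The transcript was named for its p in these same libraries, so this p adds no separate support. Its expected counts were 433, 481 and 472 in the AURKA-guide libraries and 302, 264 and 311 in the control libraries, a log2 fold change of 0.65 (SE 0.106, edgeR adjusted p = 0.432 over 43979 transcripts). The DESeq2 fit gave 0.65 with an adjusted p of 2.01e-07, so this call rests on the tool. Another TXNIP transcript, NM_001313972.1, had 0, 65.2 and 82.0 expected counts in the AURKA-guide libraries and 108, 70.5 and 106 in the control libraries. A further one, XM_017000085.2, had 58.9, 0 and 21.2 in the AURKA-guide libraries and 46.2, 64.85 and 55.2 in the control libraries. The count of 0 thus fell on AURKA-guide replicate 1 for the former and replicate 2 for the latter, so these estimates are uncertain.

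Other transcripts were smaller parts of their genes. NM_182742.2 made up 11.9%, 9.33% and 6.62% of TXNRD1 TPM in the AURKA-guide libraries and 2.56%, 3.59% and 5.30% in the control libraries, with a log2 fold change of its counts of 1.37 (SE 0.357, edgeR adjusted p = 0.692). For GSR, NM_001195103.2 had 43.4, 25.3 and 31.8 expected counts in the AURKA-guide libraries and was listed at 0 in each control library. It made up at most 2.34% of the gene's TPM in any AURKA-guide library. Other minor GSR transcripts were also at 0 in some libraries. NM_001195104.2 had 0, 0 and 0 in the AURKA-guide libraries and 41.9, 0 and 28.7 in the control libraries. NM_001195102.2 had 0, 112 and 155 in the AURKA-guide libraries and 0, 0 and 37.2 in the control libraries. Of 98 member transcripts tested none passed in edgeR, where 1 of all 43979 transcripts did (0.00227%), and 5 had an unadjusted p under 0.05 (5.1%, against 3.85% of all transcripts). The same 5 of the 98 (5.1%), of TXNIP, TXNRD1, GSR, FTL and PRDX2, passed in DESeq2, where 891 of the 43979 transcripts kept by the same filter did.

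**Figure D3:**
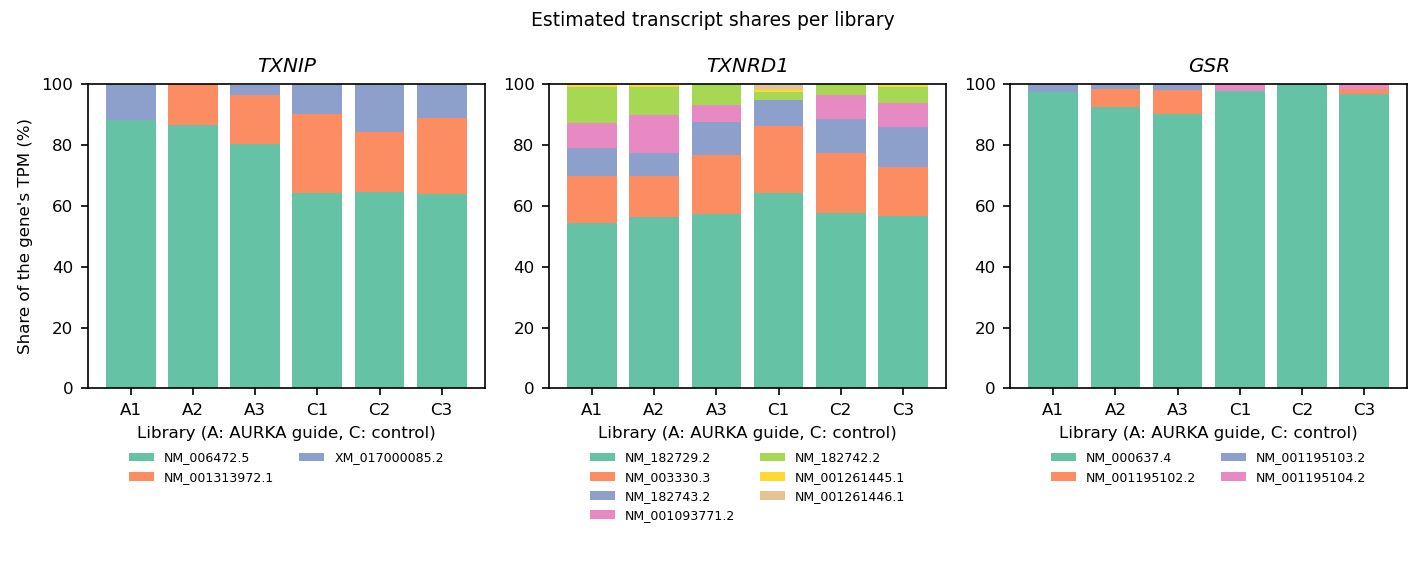
Share of each gene's TPM estimated for each RefSeq transcript of TXNIP, TXNRD1 and GSR in AURKA-guide (A1 to A3) and control (C1 to C3) libraries. NM_006472.5 fills 80.5% to 88.3% of the TXNIP bars in AURKA-guide and 63.9% to 64.7% in control libraries.

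The authors' deposited transcript table also compares an NSD2 guide with the controls; the libraries of the NSD2 guide were not analysed here. Both of its comparisons share the controls. Of 123 member transcripts with a q-value in the authors' deposited table, 6 were under 0.05 for the AURKA guide, where 1.55% of all transcripts were. Of 123 for the NSD2 guide 5 were, where 1.78% of all transcripts were. TXNIP NM_006472.5 was listed in the authors' deposited table at 0.65 (q-value 0.00280) for the AURKA guide and 0.80 (q-value 6.84e-06) for the NSD2 guide. FTL NM_000146.3 was listed in the authors' deposited table at -0.16 (q-value 0.00115) for the AURKA guide and -0.0349 for the NSD2 guide. PRDX2 NM_005809.5 was listed in the authors' deposited table at -0.18 (q-value 0.0367) for the AURKA guide and 0.0108 for the NSD2 guide. For the AURKA guide the authors' deposited table also lists TXNRD1 NM_182742.2 at 1.37 (q-value 0.00783) and GSR NM_001195103.2 with a q-value of 0.00482; for the NSD2 guide TXNRD1 NM_182742.2 is at 0.19 and GSR NM_001195103.2 has a q-value of 0.0781. FTH1 NM_002032.2 was listed in the authors' deposited table at -0.0763 (q-value 0.610) for the AURKA guide and -0.16 (q-value 0.0437) for the NSD2 guide. PRDX5 NM_012094.4 was listed in the authors' deposited table at -0.0529 for the AURKA guide and 0.42 (q-value 0.0309) for the NSD2 guide. TKT NM_001135055.2, at 0 in all 6 libraries here, has a q-value of 3.63e-08 for the NSD2 guide in the authors' deposited table. The difference between the guides was not tested. For NFE2L2, named after its values were seen, the authors' deposited table lists the transcript NM_001313903.1 at -21.78 (q-value 1.77e-07) for the AURKA guide and -21.76 (q-value 1.88e-07) for the NSD2 guide. In the deposited counts this transcript was listed at 0 in all AURKA-guide libraries and in control replicates 1 and 2, and had 114 expected counts in control replicate 3 alone, where it made up 4.46% of NFE2L2 TPM.

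Of the 6 peroxiredoxins, thiol enzymes that break down hydrogen peroxide, PRDX2 and PRDX5 were lower in each AURKA-guide library without passing the threshold. PRDX2 (gene ID 7001), a cytosolic enzyme abundant in red blood cells, was at 374, 388 and 369 CPM in AURKA-guide replicates 1 to 3, against 424, 449 and 403 CPM in control replicates 1 to 3. The highest value was control replicate 2, and the log2 fold change was -0.17 (SE 0.0497, 95% interval -0.28 to -0.07, adjusted p = 0.103). PRDX5 (gene ID 25824), found in mitochondria, peroxisomes and cytosol, was at 213, 217 and 205 CPM in the AURKA-guide libraries and 232, 250.4 and 219.9 CPM in the control libraries. Again control replicate 2 was highest, and the log2 fold change was -0.15 (SE 0.0541, 95% interval -0.26 to -0.03, adjusted p = 0.204). PRDX1 (gene ID 5052), the close cytosolic relative of PRDX2 and an NRF2 target, was at 129, 139 and 131 CPM in the AURKA-guide libraries and 124, 121 and 129.6 CPM in the control libraries, with a log2 fold change of 0.0924 (SE 0.0526, 95% interval -0.02 to 0.20, adjusted p = 0.407) and overlapping groups. The mitochondrial PRDX3, the reticulum enzyme PRDX4 and the 1-cysteine enzyme PRDX6 were at 0.0174, -0.0655 and -0.0587 on the log2 scale.

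Both ferritin chains, which store iron and so keep it from reacting with peroxide, were lower in each AURKA-guide library without passing the threshold. FTL (gene ID 2512) was at 2804, 2841 and 2765 CPM in AURKA-guide replicates 1 to 3, against 3096, 3253 and 3005 CPM in control replicates 1 to 3. Its log2 fold change of -0.15 (SE 0.0411, 95% interval -0.24 to -0.07, adjusted p = 0.0777) had the smallest p of the 37 members. FTH1 (gene ID 2495) was at 1039, 1057 and 998 CPM in the AURKA-guide libraries and 1068, 1109 and 1079 CPM in the control libraries, where the groups were closer and the log2 fold change was -0.0732 (SE 0.0422, 95% interval -0.16 to 0.02, adjusted p = 0.412). Summed over all 40 members, the AURKA-guide libraries held 8259.7, 8443 and 8104 CPM and the control libraries 8651, 8960.2 and 8515 CPM, without overlap. Without ferritin the sums were 4416, 4545 and 4341 CPM in AURKA-guide and 4487, 4599 and 4431 CPM in control libraries, which overlap. Ferritin made up 46.2% to 46.5% of the members' counts in AURKA-guide and 48.0% to 48.7% in control libraries.

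Transcript GC content moved with these differences. Over the 37 members the Pearson correlation of GC content with the log2 fold change was -0.61, and over 12811 genes -0.28; the genes share the same 6 libraries, so this is a description. Control replicate 2 favoured GC-rich transcripts most, by 0.113 on the log2 scale per 10 percentage points of GC, and control replicate 3 was at -0.0553, within the range of -0.0638 to 0.00773 of the AURKA-guide libraries. With each library's GC trend taken out as an offset, the correlation over the members was -0.15. The part of GC content in the differences was not tested further. The values of FTL, PRDX2 and PRDX5 were then -0.11 (adjusted p = 0.0145), -0.11 (adjusted p = 0.0350) and -0.0574 (adjusted p = 0.321) in edgeR, and TXNIP was at 0.23 (adjusted p = 0.0209). So 3 of 37 members passed, 1 higher and 2 lower, against 6.42% of all genes (3.18% higher and 3.25% lower). Without control replicate 3, 7 of 37 passed, against 15.3% of all genes (6.81% higher and 8.5% lower): GCLC and TXNIP were higher, and GPX4, TXNRD2, PRDX2, PRDX5 and FTL lower. Leaving out any other library, none passed.

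**Figure D4:**
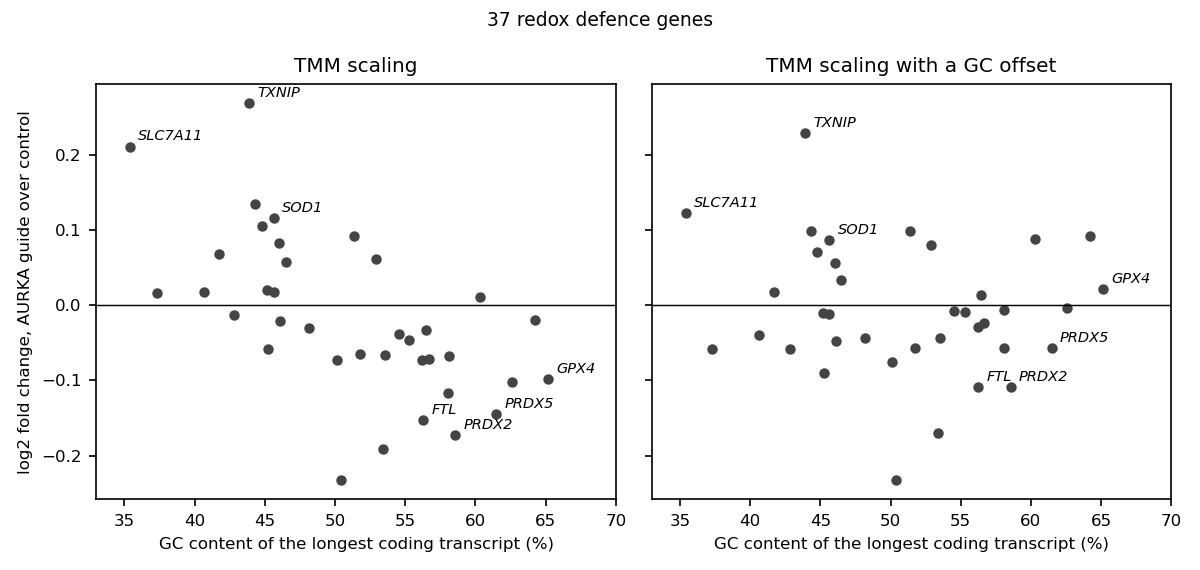
Log2 fold change of AURKA guide over control against the GC content of the longest coding transcript for the 37 tested members, without (left) and with (right) a GC offset per library. Pearson's r is -0.61 on the left and -0.15 on the right; TXNIP lies above 0 and FTL and PRDX2 below 0 in both.

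The superoxide dismutases and catalase had log2 fold changes above 0, none of which passed, and that of catalase changed sign over the alternative fits. SOD1 (gene ID 6647), the cytosolic copper-zinc enzyme, was at 221, 238 and 214 CPM in AURKA-guide replicates 1 to 3, against 204, 208 and 209.6 CPM in control replicates 1 to 3. Every AURKA-guide library was above every control library, and the log2 fold change was 0.12 (SE 0.0506, 95% interval 0.00741 to 0.224, adjusted p = 0.276). SOD2, the mitochondrial manganese enzyme, averaged 63.7 ± 1.18 CPM in AURKA-guide and 60.8 ± 1.76 CPM in control libraries (SD, n = 3 each). Its CPM did not overlap between groups, at 0.0681 on the log2 scale, but its TPM did. SOD2 TPM was 55.2, 45.2 and 49.25 in AURKA-guide replicates 1 to 3, against 47.4, 46.7 and 47.0 in control replicates 1 to 3. Its expected counts were not whole, so reads had been divided between features. CAT, catalase, was at 0.0204 with overlap. Over the alternative fits the value ran from -0.0161 to 0.0732 for CAT and from 0.0176 to 0.0820 for SOD2. None of the NADPH suppliers passed: PGD of the oxidative pentose phosphate pathway was at 0.0617 on the log2 scale, and TALDO1 and TKT of its sugar-exchanging arm at -0.0326 and -0.0673.

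A wider list of 102 genes, chosen for the same pathways, held 96 in the table and 88 with enough reads. Of the 88, 1 fell and none rose in edgeR (1.07% of all genes fell and 0.959% rose). BLVRB (gene ID 645), a biliverdin and flavin reductase of haem breakdown, fell to 22.8, 22.5 and 19.8 CPM in AURKA-guide replicates 1 to 3, against 29.5, 28.8 and 25.3 CPM in control replicates 1 to 3, without overlap. Its log2 fold change was -0.36 (SE 0.0810, 95% interval -0.54 to -0.19, adjusted p = 0.0303). The call was lost without AURKA-guide replicate 1, 2 or 3 (edgeR adjusted p = 0.0547, 0.116 and 0.224) and without control replicate 1 (0.205). TFRC (gene ID 7037), the transferrin receptor that brings iron into the cell, was just short of the threshold at 471, 478 and 497 CPM in AURKA-guide replicates 1 to 3, against 409.6, 400.2 and 446 CPM in control replicates 1 to 3, all AURKA-guide libraries being higher, with a log2 fold change of 0.20 (SE 0.0501, 95% interval 0.10 to 0.31, adjusted p = 0.0518). It passed in DESeq2 (adjusted p = 0.0131), without control replicate 3 (edgeR adjusted p = 8.39e-04) and with the GC offset (edgeR adjusted p = 0.00216). The authors' deposited gene table, which lists 231 genes, holds BLVRB at -0.36 (q-value 0.0415) and TFRC at 0.20 (q-value 0.0124) and none of the 40 members.

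**Figure D5:**
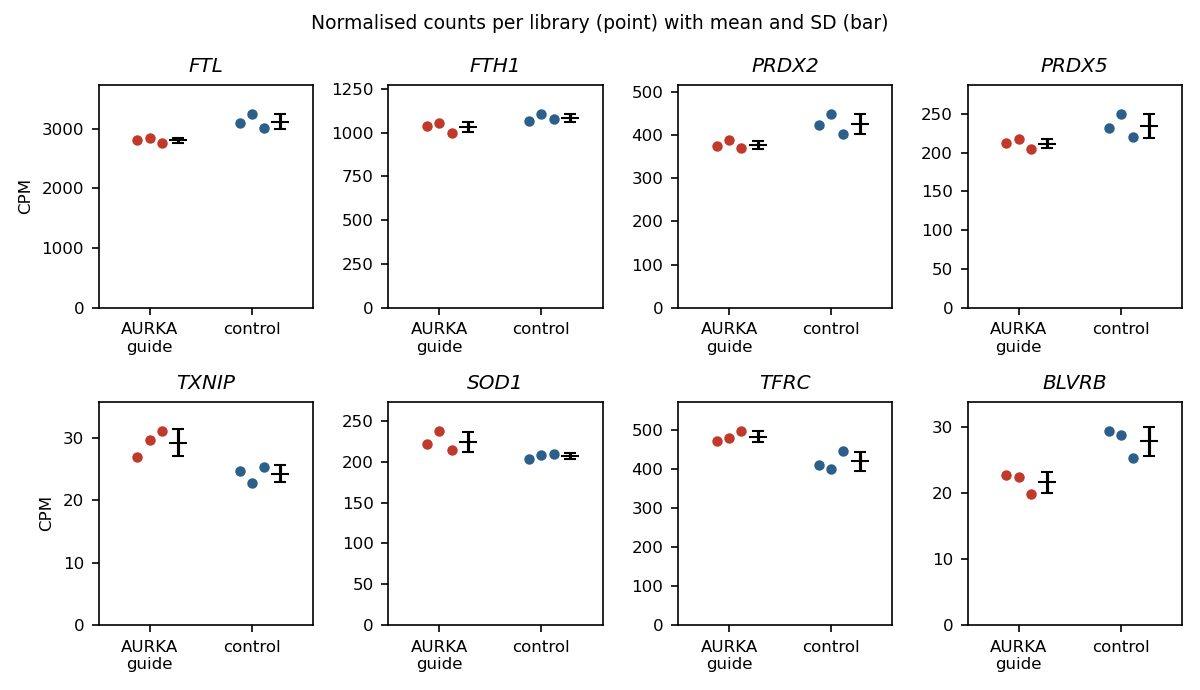
CPM of FTL, FTH1, PRDX2, PRDX5, TXNIP, SOD1, TFRC and BLVRB in each library (points), with the group mean and SD beside them; axes start at 0. The groups do not overlap in any panel; FTL, FTH1, PRDX2, PRDX5 and BLVRB lie lower and TXNIP, SOD1 and TFRC higher in AURKA-guide libraries, and BLVRB alone passes the threshold.

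By listed role, none of 13 tested partners and competitors of NRF2 and 1 of 15 further targets passed in edgeR. None of 25 further glutathione and cysteine genes and none of 35 further thioredoxin, glutaredoxin and repair genes did. The 25 include GGCX, a vitamin K-dependent carboxylase that is not a glutathione enzyme. The mitochondrial glutaredoxin GLRX5 (gene ID 51218), needed for iron-sulfur clusters, was at 83.7, 93.2 and 88.3 CPM in the AURKA-guide libraries and 101, 102 and 98.9 CPM in the control libraries, a log2 fold change of -0.19 (SE 0.0547, 95% interval -0.30 to -0.07, adjusted p = 0.108). MSRB3 (gene ID 253827), which repairs oxidised methionine, was at 17.5, 20.5 and 19.4 CPM in the AURKA-guide libraries and 21.9, 22.6 and 25.03 CPM in the control libraries, a log2 fold change of -0.28 (SE 0.0824, 95% interval -0.45 to -0.10, adjusted p = 0.118). HAGH (gene ID 3029), which releases glutathione in methylglyoxal removal, was at 40.1, 37.6 and 37.1 CPM in the AURKA-guide libraries and 46.0, 46.0 and 41.0 CPM in the control libraries, a log2 fold change of -0.21 (SE 0.0670, 95% interval -0.35 to -0.07, adjusted p = 0.141). GLRX5, MSRB3 and HAGH were each lower in every AURKA-guide library than in any control library. GLRX5 and MSRB3 passed with the GC offset (edgeR adjusted p = 0.00228 and 0.00881), and GLRX5 and HAGH without control replicate 3 (edgeR adjusted p = 0.0141 and 0.00680).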

How the data were processed

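RNA of 6 LP-1 libraries was sequenced as total RNA on a BGISEQ-500, per the labels. BWA, Bowtie2, RSEM and hg19 are named in the submitters' processing notes, without role or version, and the sources used here give neither strandedness nor read filters. The authors deposited expected counts per gene and per RefSeq transcript, estimated from reads that can be shared between features. The authors also deposited TPM, used here for levels, and FPKM, which was not used. Their own comparisons were deposited as log2 fold changes with q-values from DESeq2, per the file headers; a positive value there means higher with the guide, as read from transcripts at 0 in the controls.

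The expected counts were rounded to whole numbers, filtered with filterByExpr and scaled by TMM. The groups were compared in edgeR 4.0.16 (quasi-likelihood F test, R 4.3.3) with Benjamini-Hochberg adjustment over all genes or transcripts, at 0.05. Adjusted p-values are from edgeR unless DESeq2 1.42.0 is named. Intervals of fold changes are at 95%. The GC offset is a natural spline (5 df) of each library's deviation on the GC content of the longest coding transcript of GENCODE, known for 97.5% of tested genes. Alternatives were a replicate block, each library left out, other filters and scalings, DESeq2 and the GC offset.

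The members and lists were chosen with earlier results of these data known. Values per library are given for the main regulators and targets, the 12 members with the smallest p at a mean of at least 5 CPM, and 5 other pathway genes chosen likewise. Libraries of an NSD2 guide were not analysed here.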

Additional observations from a re-analysis of the deposited data

How the results depend on the processing

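The count of members past the threshold was 0, and it stayed at 0 in the DESeq2 test, with DESeq2 size factors or library size alone, with no filter on low counts and with a minimum mean of 10 CPM. Leaving out 1 library gave 0 to 7 members, 98 to 2034 of all genes (267 with all libraries), 0 to 8 other pathway genes and 0 transcripts; each of these highest counts but that of transcripts came without control replicate 3. The GC offset gave 3 of 37 members, 823 of 12811 genes (6.42%) and 10 other pathway genes. With the replicate block as well it gave 3 of 37 members, 898 of 12811 genes and 10 other pathway genes. The replicate block alone gave 2 of 37 members (FTL with an edgeR adjusted p of 0.0391 and PRDX2 with 0.0457). It gave 385 of 13138 genes, 2 of 88 other pathway genes and 0 transcripts. The labels do not tie the numbers to a shared culture. Same-numbered libraries deviated with correlations of 0.051, -0.105 and 0.095, and differently numbered ones with correlations of -0.206 to 0.166. With 3 libraries per group these values cannot tell whether same-numbered libraries shared a culture. Other pathway genes numbered 2 with no filter and 2 in DESeq2. Among 43979 transcripts edgeR called 1 and DESeq2 891, and among the 98 transcripts of members 0 and 5. The cause was not tested. No called value changed direction; 34 values of members over all alternatives changed sign without passing.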
